A study of Homo sapiens with 12 samples.

Results

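The genes described here encode the enzymes that build long-chain fatty acids and put double bonds into them: ACLY, ACSS2, ACACA, FASN, ELOVL6, SCD, FADS2, ELOVL5, FADS1 and ACSL3. They were chosen by symbol, through the Ensembl identifier of each row, and all 10 were found among the 58721 genes of the count table. RNA was sequenced from HT-29 cells, an established line of human colorectal cancer, and from LAD2 cells, an established line of human mast cells. Each line was kept alone or in direct contact with the other for 12 h, which gave the groups HT-29 alone, HT-29 coculture, LAD2 alone and LAD2 coculture with 3 columns each. The LAD2 coculture columns were identical to each other across all genes and were counted as 1 library, so that the groups held 3, 3, 3 and 1 distinct libraries, 10 in all. HT-29 was maintained in McCoy 5A with serum and LAD2 in SP34 with its nutrients. The labels name no other agent or genetic change, and they leave out which medium the cocultures had and how the lines were separated, so that medium and contact cannot be told apart. RNA came off a mini kit for HT-29 and a micro kit for LAD2, so that line and kit cannot be told apart in comparisons between lines. Each result rests on a single line of its cell type. No label says that libraries of 1 group are from different cultures, so p-values cover only the spread between libraries, which may be technical.

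Fatty acid synthesis starts from acetyl-CoA in the cytosol, which ACLY cleaves from citrate and ACSS2 makes from acetate. ACACA carboxylates acetyl-CoA to malonyl-CoA, and FASN joins these units into palmitate. ELOVL6 lengthens palmitate, and SCD, the stearoyl-CoA desaturase, introduces the first double bond that makes monounsaturated fatty acids. FADS2, ELOVL5 and FADS1 act in turn on the essential polyunsaturated fatty acids of the diet and yield arachidonic acid, from which mast cells make prostaglandins and leukotrienes. ACSL3 couples fatty acids to CoA and is found on the endoplasmic reticulum and on lipid droplets. Most of these genes are known targets of the sterol-regulated transcription factors SREBF1 and SREBF2, and the nuclear receptor LXR induces SREBF1.

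Libraries held 17.2 M to 34.1 M counts (M, 1e6), and a count of 0 allows up to 3 counts, or 0.0879 to 0.174 counts per 1e6 counts (CPM), which covers counting error only. The labels of the lines were checked against 14 mast cell and 14 epithelial markers. In LAD2 alone the mast cell markers summed to 20600.5 to 20956 CPM, and in HT-29 alone to 33.1 to 33.7 CPM, nearly all of it GATA2, with 10 to 13 of the 14 at 0, KIT, CPA3, HDC, TPSAB1 and TPSB2 in every library. In HT-29 coculture the same sum was 265 to 289 CPM with none at 0, and in LAD2 coculture 20268 CPM. The epithelial markers summed to 12948 to 13562 CPM over the HT-29 libraries and to 227 to 250.035 CPM in LAD2 alone, where 6 to 9 of the 14 were at 0, KRT19 held most of the sum and CDH1, CLDN3, CDX1, CDX2 and VIL1 were at 0. In HT-29 alone KRT8 and KRT18 had the highest means, 6207 and 3667 CPM. CDX1, CDX2 and CDH17 had means of only 0.245, 2.28 and 1.72 CPM there and add little to the check. In the LAD2 coculture library the epithelial markers summed to 1095 CPM with none at 0. Each coculture group therefore held RNA typical of the other line. Over the 309 genes with at least 50 CPM in LAD2 alone and at most 0.5 CPM in HT-29 alone, FADS2 and ELOVL5 among them, the median level in HT-29 coculture was 1.04%, 1.09% and 1.19% of that in LAD2 alone. Over the 327 genes chosen the other way round, the level in LAD2 coculture was 5.26% of that in HT-29 alone. In these bulk libraries, fewer cells of a type and less RNA per cell cannot be told apart.

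The lines differed in which of these enzymes they expressed when alone. HT-29 alone held more FASN, ACACA and ACSL3 RNA, and LAD2 alone held more RNA of the polyunsaturated branch, of ACSS2 and of SCD. All 10 genes differed between the lines in edgeR, 7 higher and 3 lower in LAD2, where 92.4% of the 15830 genes tested differed (47.5% higher and 44.9% lower), so that a difference as such says little about these genes. The sizes varied widely. FASN (ENSG00000169710, chromosome 17, 82078333 to 82098332, minus strand, GRCh38 as for all positions here) had 569, 561 and 577 CPM in HT-29 alone and 109.5, 114 and 106 CPM in LAD2 alone, a 5.18-fold higher level in HT-29. ACACA (ENSG00000278540, chromosome 17, 37084988 to 37406818, minus strand) had 335, 349 and 359.9 CPM in HT-29 alone against 37.0, 41.9 and 37.1 CPM in LAD2 alone, or 9.00-fold more. ACSL3 (ENSG00000123983, chromosome 2, 222860934 to 222944639, plus strand) had 227, 233 and 232 CPM against 101, 109 and 113 CPM, or 2.14-fold more. For these enzymes every HT-29 library stood above every LAD2 library.

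The polyunsaturated branch had few or no counts in HT-29 alone. FADS2, the delta-6 desaturase (ENSG00000134824, chromosome 11, 61792980 to 61867354, plus strand), had 0.205, 0.264 and 0.232 CPM there, from 17 counts over the group, and 1524, 1463 and 1498 CPM in LAD2 alone. FADS1, the delta-5 desaturase (ENSG00000149485, chromosome 11, 61799625 to 61829318, minus strand), had 1.33, 1.49 and 1.45 CPM against 298, 296 and 313 CPM, a 212-fold higher level in LAD2. ELOVL5, the elongase that acts between them (ENSG00000012660, chromosome 6, 53267398 to 53349179, minus strand), had no count in any HT-29 alone library and 294, 296 and 315 CPM in LAD2 alone, which is at least 7129.7-fold higher against 3 counts over the HT-29 group. The desaturases lie on opposite strands and share 142 exon bases, and FADS2 shares 49 with FEN1 on its own strand. Whether the counting used strand is not stated, so reads from those bases cannot be assigned with certainty. ACSS2 (ENSG00000131069, chromosome 20, 34872146 to 34927962, plus strand) had 14.2, 13.4 and 16.8 CPM in HT-29 alone and 162, 158 and 163 CPM in LAD2 alone, a 10.9-fold higher level.

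SCD, ACLY and ELOVL6 lay closer together. SCD (ENSG00000099194, chromosome 10, 100347124 to 100364834, plus strand) had 774, 823 and 832 CPM in HT-29 alone against 1775, 1754 and 1812 CPM in LAD2 alone, a log2 difference of 1.13. ACLY (ENSG00000131473, chromosome 17, 41866908 to 41930542, minus strand) had 426, 432 and 422 CPM against 494, 482 and 486 CPM, a log2 difference of 0.18. ELOVL6 (ENSG00000170522, chromosome 4, 110045846 to 110199199, minus strand) had 106, 114 and 118 CPM against 129.6, 132 and 140.4 CPM, a log2 difference of 0.24. All LAD2 alone libraries were above all HT-29 alone libraries for these genes as well, by a small margin for ACLY and ELOVL6.

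**Figure D1:**
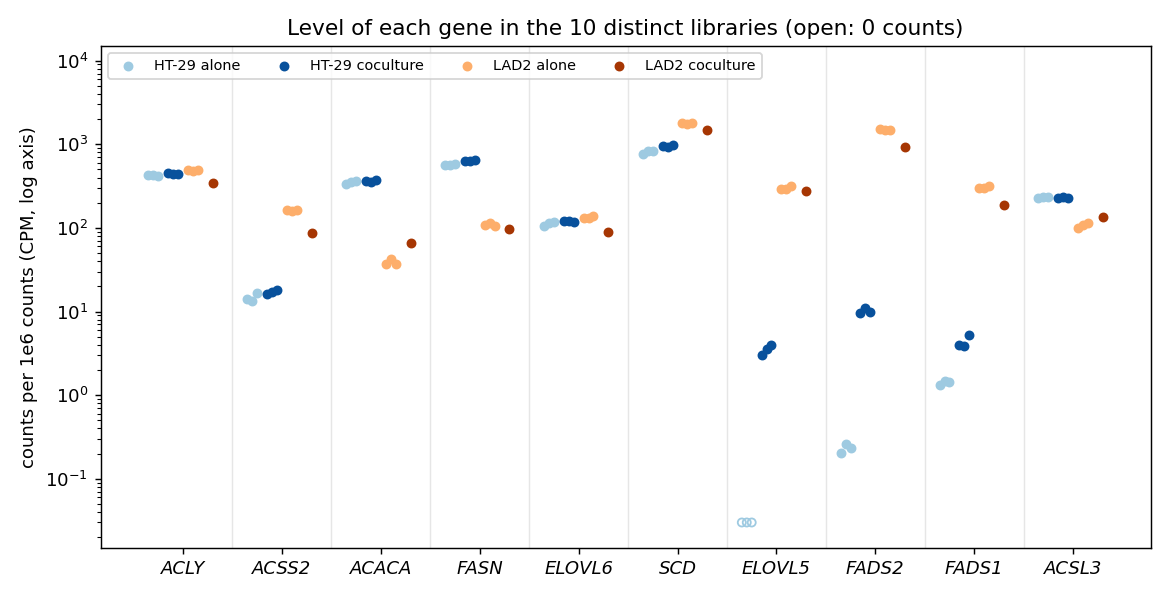
Level of each gene in CPM on a log axis, one point per distinct library and one colour per group, with open points for 0 counts. FADS2, FADS1 and ELOVL5 are under 2 CPM in HT-29 alone and at 294 CPM or more in LAD2 alone, while ACLY and ELOVL6 are near the same level in both lines.

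Between genes, levels were compared per kilobase (kb) of merged exon. In HT-29 alone the order of levels was SCD with 151 ± 5.78 CPM per kb (mean ± SD, n = 3), ACLY with 97.5 ± 1.077, FASN with 66.4 ± 0.973, ACSL3 with 40.6 ± 0.565, ACACA with 31.6 ± 1.13, ELOVL6 with 16.96 ± 0.925, ACSS2 with 4.77 ± 0.576, FADS1 with 0.180 ± 0.0108, FADS2 with 0.0469 ± 0.00594 and ELOVL5 with 0 CPM per kb. No neighbours in that order overlapped between libraries. In LAD2 alone SCD again came first with 332 ± 5.5 CPM per kb, but FADS2 followed with 300.2 ± 6.16 and ACLY with 111 ± 1.42 and ELOVL5 with 86.5 ± 3.42 came next. ACSS2 had 51.9 ± 0.943 CPM per kb, FADS1 38.3 ± 1.16, ELOVL6 20.2 ± 0.865, ACSL3 18.9 ± 1.12, FASN 12.8 ± 0.495 and ACACA 3.51 ± 0.256. ELOVL6 and ACSL3 were the only neighbours there whose libraries overlapped. FASN and ACACA thus took places 3 and 5 in HT-29 alone and places 9 and 10 in LAD2 alone. With the length of the longest transcript in place of merged exons, FADS2 in LAD2 alone came out above SCD, at 412 against 332 CPM per kb, and FADS1 above ACSS2, at 66.9 against 52.6 CPM per kb.

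In HT-29 coculture, 6 of the 10 genes were higher than in HT-29 alone and 0 were lower, while 8.76% of the 14070 genes tested were called, 5.83% higher and 2.94% lower (edgeR's quasi-likelihood test, adjusted p under 0.05). The median log2 change was 0.185 over the 10 genes and 0.0011 over all genes tested. Levels did not overlap between the groups for 7 genes, all higher in coculture, against 15.6% of genes tested that were higher without overlap and 7.83% that were lower. FASN and SCD, already abundant in HT-29, rose by a small and even amount, whereas FADS2, FADS1 and ELOVL5 rose from near or at 0 to a few CPM.

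FASN went from 569 ± 8.33 CPM (SD, n = 3) to 633, 636 and 647 CPM in coculture, a log2 change of 0.15 ± 0.0197 (SE, edgeR adjusted p = 6.74e-08). SCD went from 809.7 ± 31 CPM to 950.3, 934 and 968 CPM, a log2 change of 0.22 ± 0.0214 (edgeR adjusted p = 7.96e-11). Every coculture library was above every library of HT-29 alone for both. ACSS2 had 16.4, 16.9 and 18.1 CPM in coculture, and the lowest of these lay below the highest of HT-29 alone. Its log2 change of 0.22 ± 0.0712 passed the threshold narrowly in edgeR (adjusted p = 0.0481). The call was lost in DESeq2 (adjusted p = 0.297) and without HT-29 alone replicates 1 or 2 (0.100 and 0.477) or HT-29 coculture replicates 2 or 3 (0.0962 and 0.1625) in edgeR.

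The rest of the synthesis steps did not pass the test in HT-29. ELOVL6 had 119.5, 122 and 119 CPM in coculture, above all libraries of HT-29 alone, with a log2 change of 0.08 ± 0.0289 (edgeR adjusted p = 0.0656). That gene was called without HT-29 alone replicate 3 (adjusted p = 0.0145), in a fit with the replicate number as a block (0.0290) and with upper quartile factors (0.0481). ACACA with 363, 354 and 369 CPM and ACLY with 452, 436 and 440.2 CPM each had a log2 change of 0.04 (edgeR adjusted p = 0.261 for both). ACSL3 with 231, 231 and 225 CPM had a log2 change of -0.02 (edgeR adjusted p = 0.664).

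Of the polyunsaturated branch, FADS2 had 9.64, 10.9 and 9.96 CPM in HT-29 coculture, from 724 counts, a log2 change of 5.36 ± 0.19 (SE, edgeR adjusted p = 4.08e-25). FADS1 had 3.96, 3.84 and 5.23 CPM, a log2 change of 1.55 ± 0.167 (edgeR adjusted p = 9.25e-10). ELOVL5 had 3.04, 3.58 and 4.03 CPM, from 248 counts, at least 83.9-fold higher than 3 counts over the group of HT-29 alone (edgeR adjusted p = 2.4e-17). These levels remained far under those of LAD2. The rise of FADS2 was 0.665% of its level in LAD2 alone, that of FADS1 0.963% and that of ELOVL5 1.18%, beside the LAD2-typical share of 1.04% to 1.19% in the same libraries.

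In the LAD2 coculture library 7 of the 10 genes were lower than in LAD2 alone, 2 were higher and ELOVL5 did not pass the test, while 20.8% of the 15821 genes tested were called, 6.75% lower and 14.1% higher (edgeR, the lone library assumed to vary like those of LAD2 alone). The median log2 change was -0.39 over the 10 genes and 0.0014 over all genes tested. All 10 coculture values lay outside the range of the 3 LAD2 alone libraries, 8 below and 2 above, as did 30.6% of genes tested below and 37.8% above. The genes that fell were ACLY, ACSS2, FASN, ELOVL6, SCD, FADS2 and FADS1, and the genes that rose were ACACA and ACSL3.

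At the start of the pathway, ACSS2 fell from 161 ± 2.93 CPM (SD, n = 3) to 87.5 CPM, with a log2 change of -0.89 ± 0.0696 (SE, edgeR adjusted p = 4.76e-14). ACLY fell from 487 ± 6.23 to 348 CPM, a log2 change of -0.50 ± 0.0645 (edgeR adjusted p = 4.61e-08). Both makers of cytosolic acetyl-CoA were thus lower in coculture. ACACA, the next enzyme, went the other way, from 38.7 ± 2.82 to 65.6 CPM, a log2 change of 0.75 ± 0.0769 (edgeR adjusted p = 1.09e-10). HT-29 alone had 9.00 times as much, and with an offset for the 5.26% share of HT-29 RNA the ACACA change was 0.25 (edgeR adjusted p = 0.0472). FASN went from 109.8 ± 4.24 to 96.7 CPM, a log2 change of -0.19 ± 0.0687 (edgeR adjusted p = 0.0387). The FASN call was lost in DESeq2 (adjusted p = 0.129), without the filter on low counts (0.0992) and without LAD2 alone replicate 1 or 2 (0.124 and 0.132). It was also lost with all libraries in 1 fit (edgeR adjusted p = 0.801), whose scaling put the median of all LAD2 genes at 0.184 on the log2 scale.

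Of the elongases and desaturases, ELOVL6, SCD, FADS2 and FADS1 fell and ELOVL5 did not pass the test. ELOVL6 fell from 134 ± 5.73 to 90.5 CPM, a log2 change of -0.58 ± 0.0705 (edgeR adjusted p = 1.07e-08). SCD fell from 1781 ± 29.5 to 1472 CPM, a log2 change of -0.28 ± 0.065 (edgeR adjusted p = 0.000831), although without LAD2 alone replicate 1 its adjusted p was 0.0506 and with all libraries in 1 fit, with the same shift of the median, 0.0509. The desaturases of the polyunsaturated branch fell by nearly the same factor. FADS2 went from 1495 ± 30.7 to 921 CPM and FADS1 from 303 ± 9.14 to 186 CPM, each a log2 change of -0.71 (SE 0.0666 and 0.0669, edgeR adjusted p = 1.03e-11 and 9.94e-12). ELOVL5 had 278 CPM beside 302 ± 11.9 CPM in LAD2 alone, a log2 change of -0.13 ± 0.0649 (edgeR adjusted p = 0.181). ACSL3 rose from 108 ± 6.38 to 137 CPM, a log2 change of 0.33 ± 0.0681 (edgeR adjusted p = 0.000178).

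**Figure D2:**
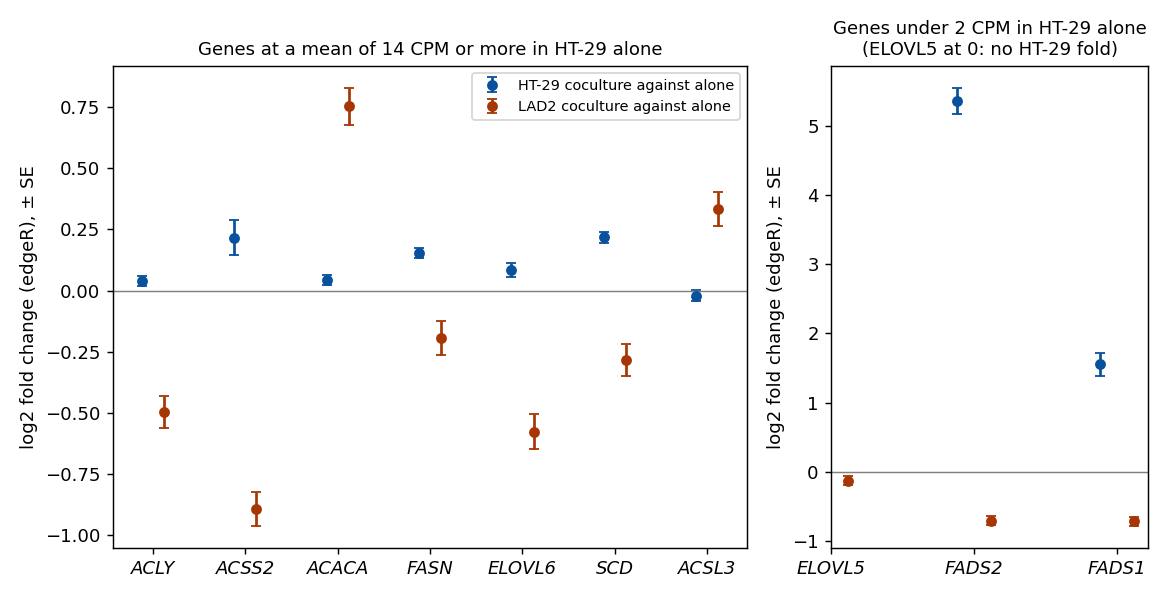
Log2 fold change of each gene in coculture against the same line alone, with the SE from edgeR as bars, for HT-29 (blue) and LAD2 (brown); genes under 2 CPM in HT-29 alone have a panel with an axis of its own, and ELOVL5, at 0 in HT-29 alone, has no HT-29 fold. In the left panel 5 of the 7 genes lie above 0 in HT-29 and below 0 in LAD2, not all of them past the test, while ACACA and ACSL3 lie above 0 in LAD2.

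The order of levels in LAD2 changed little. In the coculture library SCD had 275 CPM per kb and FADS2 185, and ELOVL5 with 79.8 stood just above ACLY with 79.5. ACSS2 had 28.2 CPM per kb, ACSL3 24.1, FADS1 23.5, ELOVL6 13.6, FASN 11.3 and ACACA 5.95. FASN and ACACA, the last in the order in LAD2 alone, were still the last.

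Whether the lines responded differently was tested as the log2 change in LAD2 minus that in HT-29 over the 10 libraries. All 10 genes differed, 8 with the lower and 2 with the higher change in LAD2, where 40.8% of the 17435 genes tested were called, 33.7% with a higher and 7.11% with a lower change. The scaling of that fit placed the median of all genes at 0.172, with 5877 genes higher and 1240 lower. With the median set to 0, a setting chosen after seeing the data, 2933 genes were higher and 1975 lower, and the calls on the 10 genes had the same directions. Relative to that median the difference was 0.71 for ACACA (edgeR adjusted p = 1.06e-12) and 0.36 for ACSL3 (5.07e-06). It was -0.34 for FASN (edgeR adjusted p = 6.81e-06), -0.53 for ACLY (1.01e-11), -0.50 for SCD (2.66e-10), -0.66 for ELOVL6 (4.13e-12) and -1.10 for ACSS2 (1.27e-15). FADS1 with -2.26 and FADS2 with -6.07 carried their rise from near 0 in HT-29. SCD and FASN thus passed the test in opposite directions in the lines, with the limits on their LAD2 calls given above. ACSS2 did so only without adjustment for LAD2 RNA in HT-29 coculture. LAD2 alone had 10.9 times as much ACSS2 as HT-29 alone, and the HT-29 call, narrow as given above, was lost with the mixture offset below. ACLY, ELOVL6, ACACA and ACSL3 passed the test in LAD2 and not in HT-29.

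The level of each gene in coculture was then set beside a mixture of both lines as measured alone, at the share of the other line in that library. In HT-29 coculture FASN had 1.13 times and SCD 1.16 times the CPM of the mixture, and with the mixture as an offset in edgeR both were still higher, by log2 changes of 0.17 (adjusted p = 1.9e-07) and 0.20 (adjusted p = 2.82e-08). FADS2 had 0.606 times, FADS1 0.912 times and ELOVL5 1.06 times the mixture, and ACSS2 1.04 times. With the offset the calls on these genes were lost, and log2 changes of FADS1 and FADS2 were -0.15 (edgeR adjusted p = 0.766) and -0.50 (edgeR adjusted p = 0.575), so that 2 of the 10 genes remained called. Over all genes the offset left 186 higher and 213 lower, in place of 820 and 413. When the mixture was made with the LAD2 coculture library, in which FADS2 and FADS1 were lower, the ratios were 0.976 for FADS2, 1.25 for FADS1 and 1.15 for ELOVL5. With that mixture the FADS2 ratios of the libraries, 0.978, 1.06 and 0.892, lay on both sides of 1. Those of FADS1, 1.18, 1.12 and 1.44, and of ELOVL5, 1.05, 1.18 and 1.22, lay above 1 in every library. They rest on 90 to 117 counts per library for FADS1 and 74 to 90 for ELOVL5. With LAD2 as measured alone, the FADS1 ratios were 0.866, 0.816 and 1.04. An offset for the mixture with the LAD2 coculture library again left 2 of the 10 genes called higher.

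In the LAD2 library the mixture moved the values of genes that HT-29 holds in excess. ACACA had 1.19 times and ACSL3 1.198 times the mixture, and with the offset their log2 changes were 0.25 (edgeR adjusted p = 0.0472) and 0.25 (edgeR adjusted p = 0.0175) beside 0.75 and 0.33 without it. FASN, which HT-29 holds in excess too, had 0.722 times the mixture, and its log2 change became -0.48 (edgeR adjusted p = 2.54e-06). ACSS2 had 0.570 times, FADS1 0.648, FADS2 0.650, ELOVL6 0.681, ACLY 0.719 and SCD 0.851 times the mixture, all still lower in the test with the offset. ELOVL5 had 0.973 times the mixture (edgeR adjusted p = 0.753). The 9 calls of the test without the offset thus had the same directions with it, while over all genes the offset left 469 higher and 533 lower, in place of 2230 and 1068.

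**Figure D3:**
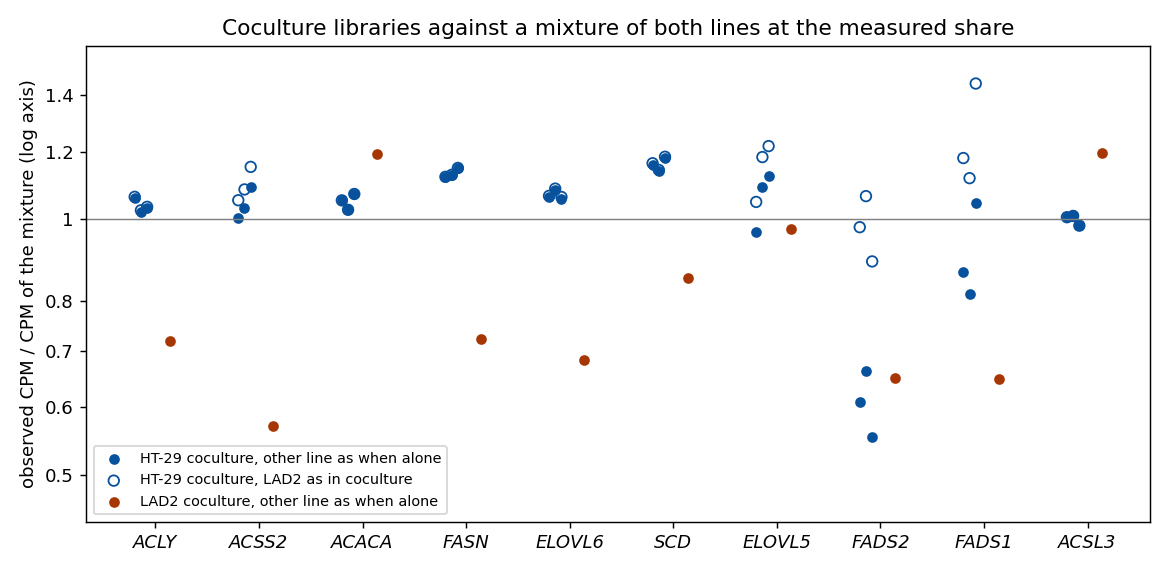
Observed CPM of each gene divided by the CPM of a mixture of both lines at the other-line share of the library, on a log axis, one point per coculture library; open points use LAD2 as measured in coculture. FASN and SCD lie above 1 in all HT-29 coculture libraries, FADS2 falls from 0.976 to 0.606 between the mixtures on average, and in the LAD2 library 7 genes lie at 0.851 or below.

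Genes around the pathway were described by 7 further lists. Among 13 tested genes of citrate export, NADPH supply and mitochondrial fatty acid synthesis, 2 were higher and 0 lower in HT-29 coculture, and 0 higher and 3 lower in LAD2 coculture, with median log2 changes of 0.0205 and -0.0739. The citrate carrier SLC25A1, which feeds ACLY, rose from 208.7 ± 5.91 to 230.7 ± 3.23 CPM in HT-29 (edgeR adjusted p = 1.68e-05) and fell from 241.6 ± 14.4 to 177.6 CPM in LAD2 (edgeR adjusted p = 1.27e-06). IDH1, a cytosolic source of NADPH, rose from 131 ± 4.53 to 151.9 ± 0.945 CPM in HT-29 (edgeR adjusted p = 4.58e-08) and fell from 221 ± 9.31 to 195.7 CPM in LAD2 (edgeR adjusted p = 0.0387). These suppliers thus moved in the directions of FASN and SCD in each line.

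Of the other elongation, desaturation and acyl-CoA synthetase genes, 2 of 18 tested were higher and 3 lower in HT-29, and 4 of 20 higher and 2 lower in LAD2, with medians of 0.0131 and 0.0082. ACSL4, a synthetase that prefers arachidonic acid, rose from 102.2 ± 1.25 to 116.4 ± 1.92 CPM in HT-29 (edgeR adjusted p = 4.63e-06), beside 774 ± 1.98 CPM in LAD2 alone and 109.6 CPM in the mixture, to which its level in coculture stood at 1.06. HACD4, a dehydratase of the elongation cycle, went from 0 to 1.10 ± 0.243 CPM in HT-29, 0.822 times the mixture. ACSL5 rose from 19.5 ± 0.61 to 38.9 CPM in LAD2, 0.899 times the mixture. For HACD4 and ACSL5 the level in coculture was thus under that of the mixture.

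Among regulators of lipogenic transcription and activity, 3 of 19 tested were higher and 1 lower in HT-29, and 3 higher and 3 lower in LAD2, with medians of 0.0421 and -0.0123. SREBF1, whose product activates most of the 10 genes, rose in LAD2 from 63.8 ± 4.38 to 114.9 CPM, 1.78 times the mixture (edgeR adjusted p = 3.4e-13), while its usual targets FASN, SCD and ACLY fell there. In HT-29 SREBF1 had 76.5 ± 5.93 CPM alone and 81.4 ± 2.83 CPM in coculture (edgeR adjusted p = 0.246). INSIG1, which holds SREBF proteins in the endoplasmic reticulum, rose in HT-29 from 118.6 ± 1.38 to 153.8 ± 4.92 CPM, a log2 change of 0.36, and fell in LAD2 from 860.6 ± 35.5 to 447 CPM, a log2 change of -0.95. SREBF2 rose in HT-29 from 250.6 ± 7.6 to 272.7 ± 1.15 CPM (edgeR adjusted p = 0.000283), 1.04 times the mixture, and fell in LAD2 from 1223 ± 22.8 to 1086 CPM (edgeR adjusted p = 0.0367). In the LAD2 library SREBF1 was thus higher and INSIG1 lower than in LAD2 alone.

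The LXR target list, in which SREBF1 is counted again, had 4 of 8 tested genes higher and 0 lower in LAD2, and 1 higher and 0 lower in HT-29, with medians of 0.47 and -0.04. MYLIP, a ubiquitin ligase for the LDL receptor, rose in LAD2 from 8.23 ± 0.767 to 38.5 CPM, 4.62 times the mixture. LPCAT3, which places polyunsaturated fatty acids into phospholipids, rose in LAD2 from 24.5 ± 1.24 to 54.2 CPM, 1.94 times the mixture. In the list of sterol synthesis and LDL uptake genes, 18 of 23 were higher and 0 lower in HT-29, and 0 higher and 21 lower in LAD2, with medians of 0.176 and -0.96. The median of the sterol list thus had the sign of the FASN and SCD changes in each line, beside medians of 0.185 and -0.39 for the 10 genes. These medians are without the mixture offset, so the HT-29 values are not those of HT-29 RNA only. In HT-29 coculture FASN and SCD stood at 1.13 and 1.16 times the mixture. ACSS2, FADS1, FADS2 and ELOVL5, called there without the offset, stood at 1.04, 0.912, 0.606 and 1.06 times.

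Of the glycerolipid and lipid droplet genes, 3 of 21 tested were higher and 1 lower in HT-29, and 4 of 22 higher and 4 lower in LAD2, with medians of -0.0239 and -0.0136. GPAT3, an acyltransferase at the start of glycerolipid synthesis, fell in HT-29 from 57.6 ± 3.43 to 49.2 ± 1.98 CPM (edgeR adjusted p = 4.58e-05), and LPIN2, a phosphatidate phosphatase, rose in LAD2 from 123.5 ± 5.17 to 155.4 CPM (edgeR adjusted p = 0.000177). Of the uptake and oxidation genes, 1 of 23 was higher and 0 lower in HT-29, and 4 of 26 higher and 2 lower in LAD2, with medians of 0.0181 and 0.0855. CPT1A, which brings long-chain acyl groups into mitochondria, fell in LAD2 from 261.5 ± 8.24 to 209 CPM (edgeR adjusted p = 8.91e-05). PPARG, a nuclear receptor of lipid storage that was at 0 in LAD2 alone, had 3.86 CPM in the coculture library, 0.97 times the mixture. Storage and oxidation as groups were near 0 in their medians in both lines.

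**Figure D4:**
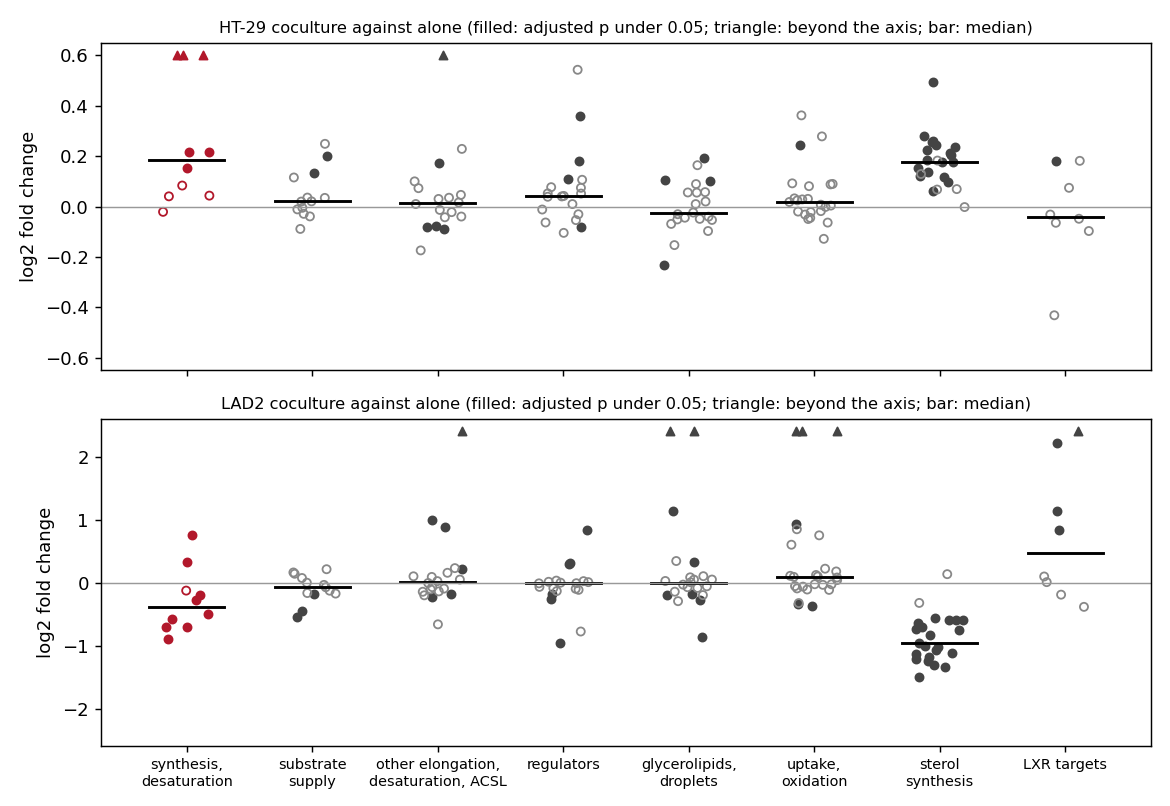
Log2 fold change in coculture of the 10 genes (red) and of each gene of 7 further lists, one point per gene, filled where the adjusted p is under 0.05, with a bar at the median and triangles for values beyond the axis; the panels have different axes. The median of the sterol list lies on the same side as that of the 10 genes in each line, with values of 0.176 in HT-29 and -0.96 in LAD2, while storage and oxidation genes lie around 0. All changes shown are without the mixture offset.

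The genes whose pattern over the 10 libraries was most like the median of the 10 genes were ranked by Euclidean distance of log2(CPM + 0.5), each value minus the mean of its line alone, among 8787 other genes with a mean of at least 5 CPM in both lines. The nearest were PBXIP1 with a distance of 0.113, HSPA1A with 0.134, YJU2B with 0.145, CYFIP2 with 0.1595 and GLUL with 0.1596. Levels were not adjusted for RNA of the other line in this ranking. All of these but HSPA1A had more RNA in LAD2 alone than in HT-29 alone. CYFIP2 had mean levels of 367 and 19.4 CPM there, and PBXIP1 206 and 22.4 CPM. How much of their rise in HT-29 coculture was LAD2 RNA was not tested. GLUL, glutamine synthetase, had mean levels of 118 and 140.1 CPM in HT-29 alone and coculture and of 1347 and 1092 CPM in LAD2 alone and coculture. HSPA1A, a heat shock protein, has the near-identical copy HSPA1B, and its value is uncertain for that reason. No gene of fatty acid metabolism stood among the 5.

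Promoter sequence was looked at because 7 of the 10 genes fell in LAD2, and windows from 250 bases before to 50 after each start were read from RefSeq on GRCh38.p14. The windows matched 9 of the 10 genes, all but FASN, with 14 windows in all. Both strands were searched for a sterol regulatory element with the letters TCACNCCAC, an E-box CACGTG, the CCAAT box bound by NF-Y, a GC box GGGCGG and the LXR element, a direct repeat of AGGTCA with 4 free bases between the copies. CCAAT was present in 9 of the 14 windows, where 34.6% of 35116 promoter windows of the same length held it. The ACLY windows overlap and hold the same sites, so the windows are not independent. By gene, 7 of the 9 had CCAAT in at least 1 of their windows. ACACA has 3 windows and ACLY, FADS2 and ACSS2 have 2 each, so the share of 34.6% per window cannot be set against that count of genes. The GC box was present in 11 windows, against 45.0% of all, and CACGTG in the ELOVL5 window only, against 7.26%. TCACNCCAC, present in 1.13% of all windows, and the LXR element, present in 0.0199%, were in none of the 14. The windows shown are those of SCD, which rose in HT-29 and fell in LAD2, of ELOVL5, absent from HT-29 alone, of ACACA, which rose in LAD2, and of ACLY, which fell there; capitals mark CCAAT or its reverse complement.
SCD, chr10:100346983-100347282, plus strand: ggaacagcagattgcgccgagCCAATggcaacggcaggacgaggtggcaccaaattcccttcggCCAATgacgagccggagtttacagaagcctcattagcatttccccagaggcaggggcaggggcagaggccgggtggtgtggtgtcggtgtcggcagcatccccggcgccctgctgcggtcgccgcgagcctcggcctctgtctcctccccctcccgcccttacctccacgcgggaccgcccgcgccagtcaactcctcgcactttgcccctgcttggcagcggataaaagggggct
ELOVL5, chr6:53348901-53349200, minus strand: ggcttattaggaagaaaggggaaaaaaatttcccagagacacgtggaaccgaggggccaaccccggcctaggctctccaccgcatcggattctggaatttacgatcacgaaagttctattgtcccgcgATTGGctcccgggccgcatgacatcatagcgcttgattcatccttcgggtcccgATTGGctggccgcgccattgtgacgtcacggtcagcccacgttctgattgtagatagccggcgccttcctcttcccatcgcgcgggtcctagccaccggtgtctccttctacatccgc
ACACA, chr17:37359047-37359346, minus strand: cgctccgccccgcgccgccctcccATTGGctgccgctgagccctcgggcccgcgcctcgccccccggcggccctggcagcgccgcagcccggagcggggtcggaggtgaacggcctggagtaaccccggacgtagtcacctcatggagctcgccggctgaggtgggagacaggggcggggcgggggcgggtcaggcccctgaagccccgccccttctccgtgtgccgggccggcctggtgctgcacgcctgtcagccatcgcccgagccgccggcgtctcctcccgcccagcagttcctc
ACLY, chr17:41918973-41919272, minus strand: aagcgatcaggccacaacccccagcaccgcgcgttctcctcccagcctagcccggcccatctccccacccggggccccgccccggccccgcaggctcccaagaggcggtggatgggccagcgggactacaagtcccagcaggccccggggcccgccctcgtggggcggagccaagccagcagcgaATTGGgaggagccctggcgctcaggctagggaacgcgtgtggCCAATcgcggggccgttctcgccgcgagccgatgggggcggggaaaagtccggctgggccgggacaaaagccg
CCAAT began at -229 and -186 from the start in SCD and at -23 in ACLY. Its reverse complement began at -122 and -68 in ELOVL5, at -226 in the ACACA window shown and at -65 in ACLY. The ACACA window from 37299718 held the reverse complement at -155 and -136, and that from 37406787 held no CCAAT on either strand. FADS1 and ELOVL6 had none in their windows. Genes that rose and genes that fell in LAD2 both held the box, and a match describes the letters of a window, not a bound site.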

How the data were processed

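Raw counts per gene were deposited for HT-29 and LAD2, alone and in coculture. Per the submitters' processing notes the authors used FastQC 0.11.9, STAR 2.7.10a, DESeq2 3.24.0 and hg38; neither the counter nor the annotation used is given in the sources here. All 58721 identifiers equalled GENCODE release 29 identifiers without the dot and 1 character, and 58207 had a current symbol. Totals were 17.2 M to 34.1 M (M, 1e6) counts per library; floors and exact bounds cover counting error only.

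The members and lists were chosen with earlier results of these data known. Text names all 10 members, up to 4 genes per further list, taken from those with the smallest p, and the 5 nearest genes. No gene of the sterol list is named, and in the other lists some called genes are not named. Fits were made per line in edgeR 4.0.16 (R 4.3.3; TMM, filterByExpr, two-sided quasi-likelihood F test, Benjamini-Hochberg, adjusted p under 0.05); the difference of the responses used all 10 distinct libraries. Scripts were tested on simulated data. Alternatives were DESeq2 1.42.0, other scalings, no filter, 1 fit, a mixture offset, a replicate block and leaving out each library. Figures used matplotlib 3.10.9.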

Additional observations from a re-analysis of the deposited data

Results flagged for a closer look

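For each of the 10 genes the log2 change in coculture differed between the lines in edgeR's test over the 10 libraries, given here as LAD2 minus HT-29 and as fitted, with the median of all genes at 0.172. The difference was lower in LAD2 for FASN (-0.17), ACLY (-0.36), SCD (-0.33), ELOVL6 (-0.49), ACSS2 (-0.93), FADS1 (-2.09), FADS2 (-5.89) and ELOVL5, whose fitted value of -9.27 depends on the prior count because HT-29 alone had no count. It was higher in LAD2 for ACACA (0.88) and ACSL3 (0.53). The LAD2 side rests on 1 coculture library. Without HT-29 alone replicate 2 the difference for FASN did not pass the test (adjusted p = 0.0546). With the offset for the other line's RNA, FADS1 (adjusted p = 0.198), FADS2 (0.97) and ELOVL5 (0.0603) did not pass it in edgeR.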

How the results depend on the processing

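Of 520 alternative values for the changes of the 10 genes, 490 kept direction and side of the threshold, 22 lost the call, 4 gained it and 4 reversed; all 120 for the lines alone were kept. The reversals were FADS1 (-0.15) and FADS2 (-0.50) in HT-29 and FADS2 in the difference (0.043) with the mixture offset, and ELOVL5 in LAD2 (0.045) with all libraries in 1 fit, whose scaling put the median of all LAD2 genes at 0.184, so that ELOVL5 was still below the median. In HT-29, 820 genes were higher and 413 lower; the offset gave 186 and 213, and 184 and 218 with the LAD2 coculture profile, with 2 members higher under either in place of 6, while 186 were lower in DESeq2 and 151 in 1 fit. In LAD2, 2230 were higher and 1068 lower; DESeq2 gave 1485 and 469, 1 fit 6998 and 446, the offset 469 and 533, and 1 fit with upper quartile factors 1675 lower. For the difference, 5877 were higher and 1240 lower; RLE gave 3343 higher, DESeq2 2903, upper quartile 2783 and 2163 lower, no filter 1744 and 2109, the centred fit 2933 and 1975, and the offset 267 lower with 5 members lower in place of 8. Leaving out 1 library gave 656 to 855 higher and 269 to 415 lower in HT-29 (269 without HT-29 alone replicate 2) with 5 to 7 members higher, 1825 to 2773 higher and 674 (without LAD2 alone replicate 1) to 1674 (without replicate 3) lower in LAD2 with 5 to 7 members lower, and 1954 to 6359 higher and 1065 to 2962 lower for the difference with 7 to 8 members lower. The cause of these shifts was not tested. With the replicate number as a block, HT-29 had 876 higher, 522 lower and 7 members higher, the difference 5655 and 1203, and the lines alone 7490 and 7064. Same-numbered HT-29 libraries deviated together with correlations of 0.061, 0.043 and 0.101 over 9183 genes, each library best with its own number. These correlations are small, and whether the number marks a pairing was not established. No block was possible within LAD2, whose coculture library has no number of its own. With a pseudocount of 1, 4 of the 5 nearest genes were shared. Depth limits FADS2 and ELOVL5 in HT-29 alone, with 17 and 0 counts.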
